A study of Mus musculus with 6 samples.

Results

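Matrix metalloproteinases (MMPs) and their tissue inhibitors (TIMPs) were followed across cell classes, ages and temperatures in stromal vascular cells of mouse inguinal white adipose tissue (iWAT). The 10 genes were chosen by symbol, 6 proteases (Mmp2, Mmp3, Mmp11, Mmp14, Mmp19 and Mmp23) and 4 inhibitors (Timp1, Timp2, Timp3 and Timp4), out of 31053 genes listed with the counts, and each symbol matched 1 gene. The cells came from C57BL/6 mice of 9 weeks (young) or 57 weeks (aged) that stayed at 30 °C (thermoneutrality, TN) or spent their last 3 or 14 days at 6 °C (3D cold and 14D cold). Cells were sorted as live and CD45-negative, which removes most immune cells, and the tissue was first digested with collagenase and dispase, so mature adipocytes were not sampled. There was 1 single-cell library for each age and temperature, 6 in all, with no genetic change in any group, and the number of mice behind each library is not given in the sources used here. Tests of age therefore compared 3 young with 3 aged libraries with temperature as a term, their p-values measure the spread between libraries, and an age effect that differs by temperature could not be tested.

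MMPs are zinc-dependent endopeptidases that cut collagens, proteoglycans, fibronectin and other matrix proteins, and nearly all are made as inactive precursors whose propeptide must be removed. TIMPs are small secreted proteins that block the active site of these enzymes. MMP14, which sits in the plasma membrane, activates MMP2 in a complex in which TIMP2 bridges the enzyme and its substrate, and remodelling of collagen by MMP14 is known to be needed for the growth of white fat.

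Of 68103 barcodes, 57326 were kept as cells, with 52068837 to 88508349 UMIs per library. The median UMI count per cell was 7652 to 9904 in young libraries, 6726 and 6912 in the aged TN and 3D cold libraries and 2741.5 in the aged 14D cold library, where 33.2% of cells fell in a shallow cluster with no class name. Cells were named from clusters and marker genes as Dpp4+ fibroblast-like (22325 cells), Icam1+ preadipocyte-like (16232), Cd142+ fibroblast-like (6473), endothelial-like (4101), smooth muscle and pericyte-like (SMC/pericyte, 1380), Schwann-like (426) and immune-like (417), the first 3 being the fibroblastic adipocyte stem and progenitor cells (ASPCs). The names were rebuilt from markers, and a separate marker gate applied to each cell gave the same class for 84.2% of named cells. A total of 399 of 56927 barcodes occurred in more than 1 library. UMIs were summed per library and class and are given as CPM, the UMIs of a gene per 1000000 UMIs of the class, with TMM factors from edgeR where ages or temperatures are compared; UMIs count 3′ ends, so levels of different genes can be set side by side without a correction for length. A changed level in a class sum cannot tell a changed mix of cells from changed RNA per cell.

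The 10 genes lie at separate loci of GRCm38, except that Mmp11, Mmp19 and Timp3 share chromosome 10. Mmp2 spans chr8:92827291-92853420, Mmp14 chr14:54431612-54445364 and Timp2 chr11:118301069-118355740, and these 3 encode the MMP2 activation complex. The sequences just upstream of 3 genes are shown, Mmp11 and Timp3 as examples of members called for both age and temperature, which Mmp23 in Icam1+ preadipocytes and Timp4 in endothelial cells also were, and Mmp3 because it holds an AP-1 motif, the site bound by the Fos and Jun factors. They are RefSeq sequences of GRCm38.p6, 5′ to 3′ on the gene's strand and ending at its first annotated exon, and capitals mark the motifs TGANTCA (AP-1) and GGGCGG (GC box), searched on both strands. A printable sequence was found for 7 of the 10 genes. Mmp3 lies on the plus strand of chromosome 9 (sequence at chr9:7445572-7445821), Mmp11 on the minus strand of chromosome 10 (chr10:75932503-75932752) and Timp3 on the plus strand of the same chromosome (chr10:86300162-86300371). The Mmp11 sequence precedes the RefSeq start, which lies inside the span that GENCODE gives the gene (chr10:75923222-75936496), so a start further upstream has another promoter that is not shown.
Mmp3: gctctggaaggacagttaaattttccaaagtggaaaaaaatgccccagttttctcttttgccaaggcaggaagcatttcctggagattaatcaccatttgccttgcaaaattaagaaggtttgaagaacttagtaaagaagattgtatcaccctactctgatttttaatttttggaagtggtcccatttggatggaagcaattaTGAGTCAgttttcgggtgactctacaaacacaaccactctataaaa
Mmp11: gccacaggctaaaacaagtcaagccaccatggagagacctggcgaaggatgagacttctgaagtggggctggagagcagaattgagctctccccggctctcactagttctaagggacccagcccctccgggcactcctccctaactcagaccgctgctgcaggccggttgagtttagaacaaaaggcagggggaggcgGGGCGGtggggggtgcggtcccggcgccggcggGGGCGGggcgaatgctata
Timp3: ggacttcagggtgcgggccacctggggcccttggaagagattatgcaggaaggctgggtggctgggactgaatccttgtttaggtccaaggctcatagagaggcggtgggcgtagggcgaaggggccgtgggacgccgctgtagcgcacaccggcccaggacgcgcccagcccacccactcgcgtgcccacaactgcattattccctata
The 250 bases before Mmp3 held 1 AP-1 motif, which 6.75% of 32851 promoters of this length also hold, and a TATAAA close to the start, found in 12.4%. They held 1 CG dinucleotide. The 250 bases before Mmp11 held 2 GC boxes, a motif present in 32.7% of promoters, and 14 CG dinucleotides against a median of 6 (interquartile range 2 to 16). The 210 bases before Timp3 held neither motif and 13 CG dinucleotides. A match is a description of the letters only.

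Of the 10 genes, 9 had their highest mean level over the 6 libraries in a fibroblastic class, and the order of the classes differed from gene to gene. Levels here are a description across classes, as mean CPM without TMM factors ± SD over 6 libraries. Mmp2, which cuts denatured collagen and basement membrane collagen, was highest in Icam1+ preadipocytes at 1642 ± 109, followed by Cd142+ fibroblasts at 1328 ± 135 and Dpp4+ fibroblasts at 1047 ± 176, the same order in all 6 libraries. Its level was 463 ± 110.0 in SMC/pericytes and 115 ± 26.6 in endothelial cells. Mmp14 followed the same order at lower levels, with 321 ± 48.1, 258 ± 44.6 and 202 ± 30.3 in the 3 fibroblastic classes and 29.9 ± 6.90 in endothelial cells. Timp2 was the most abundant of the 10 and ran in the opposite order, with 4320.3 ± 449.6 in Dpp4+ fibroblasts, 2641 ± 269 in Cd142+ fibroblasts and 1959.7 ± 167 in Icam1+ preadipocytes, ranges that did not overlap.

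Mmp3 (stromelysin-1), which cuts proteoglycans and fibronectin and activates other pro-MMPs, separated the ASPC classes. It stood at 1155 ± 180 in Icam1+ preadipocytes and 1068 ± 127 in Cd142+ fibroblasts, which did not differ beyond their spread, and at 214 ± 53.8 in Dpp4+ fibroblasts. Dpp4+ fibroblasts were themselves uneven for Mmp3, with 162 ± 53.2 and 319 ± 107 in their largest clusters. Mmp19, a protease of basement membrane components, was also highest in Icam1+ preadipocytes, at 127 ± 22.9 against 65.8 ± 15.6 in Cd142+ and 27.8 ± 3.30 in Dpp4+ fibroblasts. Mmp23, a membrane-inserted enzyme that lacks the hemopexin domain of most MMPs, showed the reverse gradient, from 259 ± 17.9 in Dpp4+ fibroblasts through 159 ± 38.0 in Cd142+ fibroblasts to 91.8 ± 22.5 in Icam1+ preadipocytes. Mmp11 (stromelysin-3), which is activated by furin inside the cell, was sparse everywhere, at 26.1 ± 11.98 in Icam1+ preadipocytes, 19.4 ± 13.03 in Cd142+ fibroblasts and 6.71 to 10.0 in the 5 other classes.

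Among the other inhibitors, Timp1, a soluble and inducible TIMP, was highest in Cd142+ fibroblasts at 74.6 ± 15.3, above every other class in all 6 libraries. The Schwann-like class, on 53 Timp1 UMIs in all, stood at 28.2 ± 9.48 and Icam1+ preadipocytes at 25.6 ± 4.94. Fibroblast transcripts (Dcn, Col1a1, Col1a2, Col3a1, Pdgfra and Lum) summed to 35863 to 52732 CPM in the Schwann-like class, against 18968 to 38247 CPM in Dpp4+ fibroblasts. The part of fibroblast RNA in its Timp1 level was not tested. Timp3, the TIMP that binds to the matrix and also inhibits the sheddase ADAM17, was spread widely. Its means of 1773 ± 831 in Icam1+ preadipocytes, 1686 ± 421 in SMC/pericytes and 1476 ± 82.4 in endothelial cells had overlapping ranges, and the means of Dpp4+ fibroblasts (1173 ± 131) and Cd142+ fibroblasts (689.8 ± 207) lay below. The Dpp4+ range (1002 to 1345) lay within that of Icam1+ preadipocytes (887 to 3162). In young TN, 3D cold and 14D cold libraries Timp3 stood at 984, 1693 and 887 in Icam1+ preadipocytes. In the same libraries it stood at 1034, 1189 and 1002 in Dpp4+ fibroblasts and 1409, 1438 and 1422 in endothelial cells. Timp4, which has the most restricted expression of the family, was a vascular transcript here, at 734 ± 176 in endothelial cells and 402 ± 168 in SMC/pericytes but 1.65 to 1.95 in the 3 fibroblastic classes. Within the vascular classes it was again uneven. One endothelial cluster, led by Cldn5 and Gpihbp1, stood at 1001 ± 227 and the other, led by Col13a1 and Lrg1, at 89.6 ± 21.6. The mural cluster led by Rgs5 and Kcnj8 stood at 601 ± 230.2 and the Myh11 and Acta2 cluster at 154 ± 33.6. A high doublet score, a sign of mixed cells, was found in 53.5% of the Myh11 and Acta2 cluster and 17.4% of the Rgs5 cluster. Their median UMI counts per cell were 9583 and 3983, and the part of mixed cells in these levels was not tested. The Rgs5 cluster also passed the detection limit for 9 of 10 endothelial markers, and the part of endothelial RNA in its Timp4 level was not tested.

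**Figure D1:**
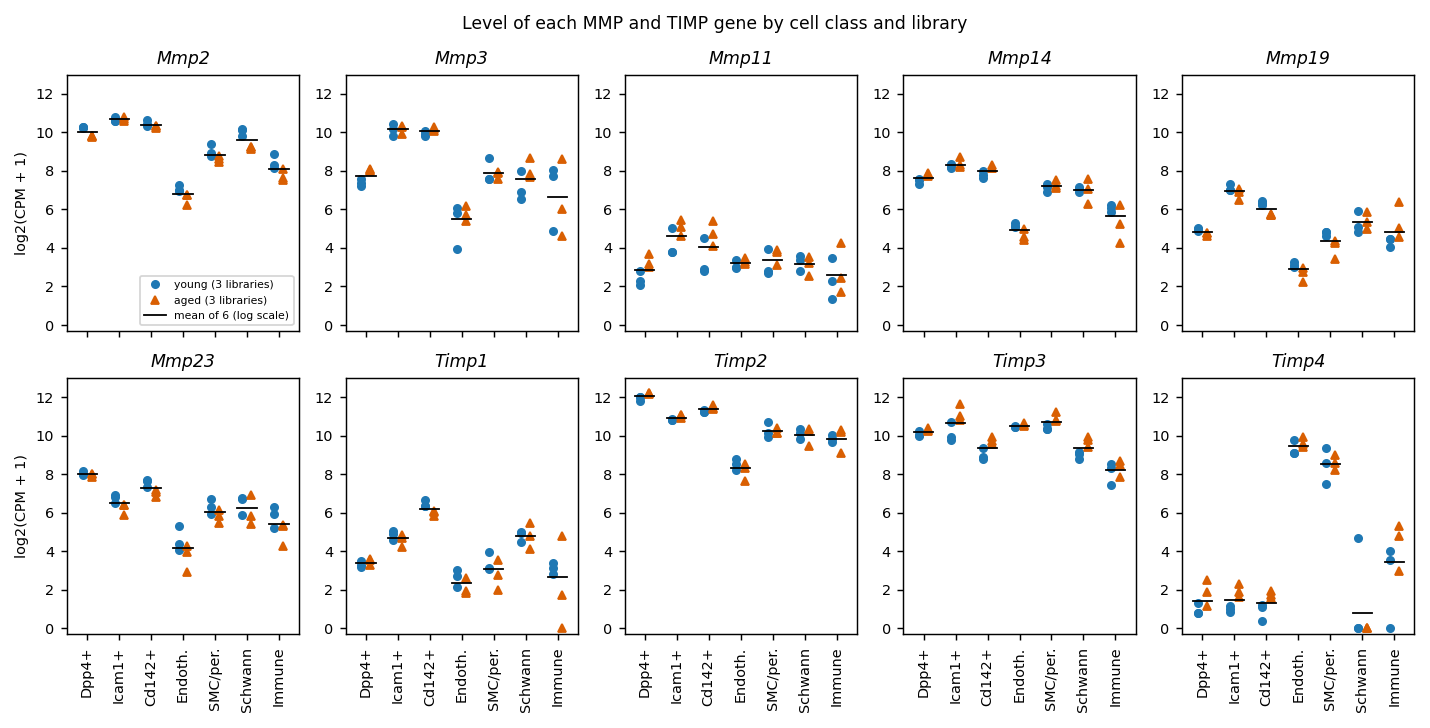
Each panel plots 1 gene, with cell classes along the horizontal axis and log2(CPM + 1) on the vertical axis; each point is 1 library (circles young, triangles aged) and each bar the mean of 6 on that scale. Timp2 leads in Dpp4+ fibroblasts (mean 4320.3 CPM), Mmp3 in Icam1+ preadipocytes and Cd142+ fibroblasts (1155 and 1068), and Timp4 in endothelial cells and SMC/pericytes (734 and 402).

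In single cells thinned to 2000 UMIs each, endothelial cells are given beside the fibroblast transcripts, and Dpp4+ fibroblasts beside Timp4, as classes of low level. Whether the UMIs found there are RNA of those cells or background was not tested. A UMI of Timp2 was found in 99.7% of Dpp4+ fibroblasts, 98.4% of Cd142+ fibroblasts and 96.4% of Icam1+ preadipocytes, against 16.5% of endothelial cells. Mmp2 was found in 83.1%, 86.2% and 93.5% of the same 3 classes against 8.23% of endothelial cells. Mmp3 was found in 63.0% of Icam1+ preadipocytes and 52.4% of Cd142+ fibroblasts but 16.4% of Dpp4+ fibroblasts, with 3.56% in endothelial cells. Timp4 was found in 58.3% of endothelial cells and 46.5% of SMC/pericytes, against 0.339% of Dpp4+ fibroblasts. Before thinning the median cell had 3410 UMIs in the endothelial class and 7597 in Dpp4+ fibroblasts, and the unthinned shares for Timp4 were 68.3% and 1.08%.

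Age was associated with changes in several members in each fibroblastic class, in both directions. In Dpp4+ fibroblasts, 4 of 10 members were higher in aged libraries (8.77% of the 13399 genes tested were) and 2 were lower (8.92%) by edgeR's quasi-likelihood test at an adjusted p under 0.05. Icam1+ preadipocytes had 3 higher members (8.15% of 13156 genes) and 1 lower (6.53%). The Cd142+ class had 4 higher (6.18% of 11901 genes) and 3 lower (6.02%). The median age log2 fold change of the 10 members was 0.21, 0.11 and 0.26 in the 3 classes, while the median over all genes tested lay between -0.0043 and -0.00038. All 10 members passed the filter on low counts in every class tested.

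**Figure D2:**
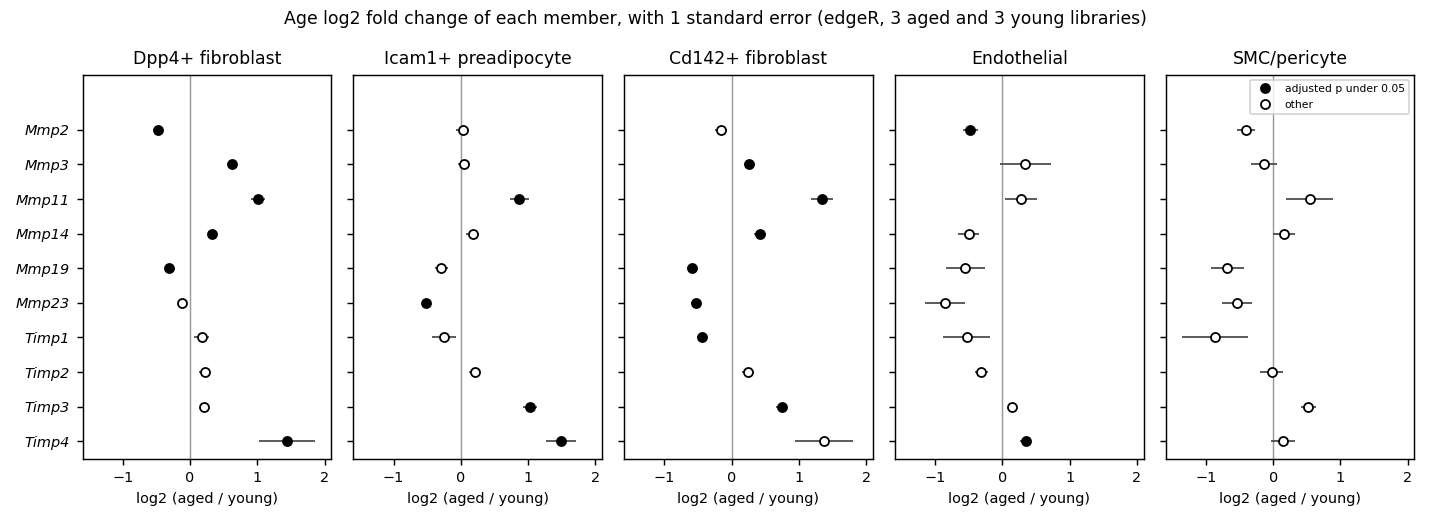
Each panel plots 1 cell class, with members on the vertical axis and the age log2 fold change (aged over young, 3 libraries each) on the horizontal axis; bars are 1 standard error and filled points have an adjusted p under 0.05 by edgeR. Mmp11 lies at 1.00, 0.87 and 1.35 in the 3 fibroblastic classes, Mmp2 at -0.48 in Dpp4+ fibroblasts, and no point is filled for SMC/pericytes.

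The members of the MMP2 activation complex moved apart in Dpp4+ fibroblasts. Mmp2 measured 1188, 1198 and 1285 CPM in the young TN, 3D cold and 14D cold libraries and 887, 876 and 862 CPM in the aged ones, so that the lowest young library lay above the highest aged one. It fell by 0.48 on the log2 scale (SE 0.07, adjusted p = 0.000926, edgeR), or 1.39-fold, and the share of cells with an Mmp2 UMI at 2000 UMIs was 86.9% ± 0.774 (SD, n = 3) in young and 77.9% ± 0.383 in aged libraries. In the same cells Mmp14 measured 189, 183 and 165 CPM in young and 213, 237 and 221 CPM in aged libraries and rose by 0.33 (SE 0.06, adjusted p = 0.00634, edgeR). Timp2 measured 3648, 4094 and 4271 CPM in young and 4558, 4648 and 4679 CPM in aged libraries, without overlap, but its log2 fold change of 0.22 (SE 0.08) had an adjusted p of 0.103. The Mmp14 call in Dpp4+ fibroblasts was lost without the young 14D cold library, with log2 fold changes from 0.27 to 0.40 as each library was left out.

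In Icam1+ preadipocytes, Mmp2 did not change detectably. It measured 1558, 1789 and 1556 CPM in young and 1715, 1582 and 1647 CPM in aged libraries (log2 fold change 0.03, SE 0.10, adjusted p = 0.89), and young and aged values overlapped. The difference between the age effects on Mmp2 in Icam1+ preadipocytes and in Dpp4+ fibroblasts was itself 0.51 (SE 0.10, adjusted p = 0.0281, edgeR with age by class in 1 model), a call lost without the aged 3D cold, aged 14D cold, young TN or young 14D cold library (estimates from 0.43 to 0.58). Between these classes 2 of 10 members were called, Mmp2 and Mmp3, against 2.59% of all genes tested. Mmp14 in Icam1+ preadipocytes had a log2 fold change of 0.17 (adjusted p = 0.285), with its highest value, 413 CPM, in the aged 14D cold library. In Cd142+ fibroblasts Mmp14 measured 218, 248 and 201 CPM in young and 276, 285 and 319 CPM in aged libraries and rose by 0.42 (SE 0.09, adjusted p = 0.0102). That call was lost without either 14D cold library, where estimates with 1 library left out ran from 0.28 to 0.53.

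Mmp3 rose with age in Dpp4+ fibroblasts, where its level was lowest of the 3 fibroblastic classes. In Dpp4+ fibroblasts it measured 195, 143 and 172 CPM in young and 265, 253 and 255 CPM in aged libraries, a rise of 0.62 (SE 0.07, adjusted p = 0.000327, edgeR) or 1.53-fold with no overlap. The rise was present in each large Dpp4+ cluster taken alone, at 0.80 and 0.86 on the log2 scale. In Icam1+ preadipocytes, where Mmp3 was about as high as anywhere, it measured 1369, 911 and 1163 CPM in young and 1239.8, 1012 and 1227 CPM in aged libraries (log2 fold change 0.04, adjusted p = 0.807). In Cd142+ fibroblasts the change was 0.26 (SE 0.08, adjusted p = 0.0481), a call that was lost when any of the 4 cold libraries was left out, with estimates from 0.24 to 0.30. The age effect in Dpp4+ fibroblasts was larger than in Icam1+ preadipocytes by 0.57 (Icam1+ minus Dpp4+ -0.57, SE 0.10, adjusted p = 0.017) and larger than in Cd142+ fibroblasts (Cd142+ minus Dpp4+ -0.37, SE 0.08, adjusted p = 0.0186). The first call was lost without the aged 3D cold, young TN or young 14D cold library (estimates from -0.62 to -0.49) and the second without any of the 4 cold libraries (-0.39 to -0.30). Cd142+ and Dpp4+ fibroblasts differed in the age effect on 3 of 10 members, Mmp3, Timp1 and Timp3, against 2.08% of all genes tested. Cd142+ fibroblasts and Icam1+ preadipocytes differed in 0 of 10 by edgeR (1.76% of genes), with 4 at an unadjusted p under 0.05 (Mmp2, Mmp3, Mmp11 and Mmp14) against 12.9% of the 12417 genes, and no other tool was run on this comparison.

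Mmp11 was the protease with the largest relative rise. Its CPM in young TN, 3D cold and 14D cold libraries were 3.28, 5.96 and 4.13 in Dpp4+ fibroblasts, against 7.11, 11.6 and 7.97 in aged libraries, a rise of 1.00 (SE 0.10, adjusted p = 0.000141, edgeR). In Icam1+ preadipocytes it measured 13.03, 31.7 and 12.5 CPM in young and 22.8, 44.4 and 32.8 CPM in aged libraries, a rise of 0.87 (SE 0.14, adjusted p = 0.00322). In Cd142+ fibroblasts it measured 6.01, 21.3 and 6.47 CPM in young and 16.1, 41.1 and 25.3 CPM in aged libraries, a rise of 1.35 (SE 0.16, adjusted p = 0.000142) or 2.55-fold. At each temperature the aged library was above the young one in all 3 classes, although the young 3D cold library reached the range of the aged libraries in Icam1+ preadipocytes and Cd142+ fibroblasts. These values rest on 53 to 1016 UMIs per library and class.

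The Mmp11 gene overlaps Chchd10, which encodes a mitochondrial intermembrane space protein and lies on the opposite strand, and the strand setting of the counting is not given in the sources used here. Chchd10 moved with Mmp11 in Cd142+ and Dpp4+ fibroblasts. In the Cd142+ class it measured 0.681, 18.4 and 2.19 CPM in young and 6.16, 40.6 and 22.7 CPM in aged libraries, with an age log2 fold change of 1.87 (adjusted p = 0.0011, edgeR), and in Dpp4+ fibroblasts it was 2.303-fold higher in aged libraries (adjusted p = 0.00961). In Icam1+ preadipocytes Chchd10 measured 2.47, 27.8 and 4.43 CPM in young and 2.31, 25.6 and 19.997 CPM in aged libraries (log2 fold change 0.63, adjusted p = 0.281), so that it was lower in the aged library at TN and 3D cold, where Mmp11 was higher. In endothelial cells Chchd10 stood at 89.5 to 139 CPM while Mmp11 stood at 6.53 to 10.4 CPM. The part of Chchd10 reads in the Mmp11 values was not tested.

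Mmp19 and Mmp23 fell with age. In Cd142+ fibroblasts, Mmp19 measured 79.3, 73.2 and 86.4 CPM in young and 53.7, 51.4 and 50.7 CPM in aged libraries, and fell by 0.59 (SE 0.08, adjusted p = 0.000292, edgeR). In Dpp4+ fibroblasts it fell by 0.31 (SE 0.06, adjusted p = 0.00684), with young libraries at 28.0 to 32.4 and aged libraries at 23.0 to 25.7 CPM. In Icam1+ preadipocytes, its class of highest level, the log2 fold change was -0.29 (adjusted p = 0.0837) and the aged 14D cold library, at 132 CPM, lay within the young range of 128 to 162 CPM. Mmp23 measured 199, 157 and 212 CPM in young and 132, 113 and 143 CPM in aged Cd142+ fibroblasts, a fall of 0.53 (SE 0.07, adjusted p = 0.000356) or 1.44-fold. In Icam1+ preadipocytes it measured 120.4, 91.9 and 112 CPM in young and 81.2, 60.2 and 84.1 CPM in aged libraries (log2 fold change -0.52, SE 0.07, adjusted p = 0.000794). In Dpp4+ fibroblasts, where Mmp23 was highest, the log2 fold change was -0.13 (adjusted p = 0.209) and the ages overlapped. None of the tests of a difference between classes passed the threshold for Mmp19 or Mmp23, the nearest being Mmp23 in Cd142+ against Dpp4+ fibroblasts (-0.42, adjusted p = 0.0644).

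Timp3 had the largest rise among the abundant members. In Icam1+ preadipocytes it measured 981, 1701 and 881 CPM in young and 1753, 3275 and 2103 CPM in aged libraries, a rise of 1.02 (SE 0.10, adjusted p = 0.000232, edgeR) or 2.03-fold. In Cd142+ fibroblasts it measured 448, 636 and 482 CPM in young and 824, 991 and 757 CPM in aged libraries, a rise of 0.74 (SE 0.08, adjusted p = 8.28e-05). Young and aged ranges did not overlap in either class. At 2000 UMIs per cell, the share of Cd142+ fibroblasts with a Timp3 UMI was 49.8% ± 4.98 (SD, n = 3) in young and 67.9% ± 2.48 in aged libraries. In Dpp4+ fibroblasts the change was 0.21 (SE 0.06, adjusted p = 0.0528), with 1043 to 1169 CPM in young and 1201 to 1332 CPM in aged libraries. The difference of the age effect between Cd142+ and Dpp4+ fibroblasts was 0.52 (SE 0.10, adjusted p = 0.00972), and that between Icam1+ preadipocytes and Dpp4+ fibroblasts was 0.82 (SE 0.22, adjusted p = 0.0921). The first of these was lost without the aged 3D cold or young 14D cold library, with estimates from 0.46 to 0.64. Timp3 lies inside Syn3, a synapsin gene on the opposite strand, whose age log2 fold changes were 1.11 (adjusted p = 0.00255), 0.89 (adjusted p = 0.0183) and 0.20 (adjusted p = 0.28) in Icam1+, Cd142+ and Dpp4+ cells by edgeR. Syn3 stood at 3.84 to 42.6 CPM in these classes, far below Timp3, and whether its UMIs are misassigned Timp3 reads was not tested.

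Timp1 was called for age in Cd142+ fibroblasts and in none of the other 4 classes tested. In Cd142+ fibroblasts, its class of highest level, it measured 80.4, 79.5 and 99.8 CPM in young and 54.8, 66.0 and 67.2 CPM in aged libraries, a fall of 0.44 (SE 0.08, adjusted p = 0.00299, edgeR). In Dpp4+ fibroblasts it measured 7.80 to 10.8 CPM in young and 8.79 to 11.1 CPM in aged libraries (log2 fold change 0.17, adjusted p = 0.341), though in its second largest cluster taken alone Timp1 rose by 0.58 (adjusted p = 0.00967). The difference between the age effects in these classes was -0.62 (SE 0.09, adjusted p = 0.00103), and it passed the threshold in all 9 other fits made of it. In Icam1+ preadipocytes the log2 fold change was -0.25 (SE 0.17, adjusted p = 0.383), with the lowest value, 17.0 CPM, in the aged TN library.

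Timp4 was near the floor in ASPCs. In Icam1+ preadipocytes it measured 0.809, 1.01 and 1.22 CPM in young and 2.61, 2.14 and 3.90 CPM in aged libraries, a rise of 1.49 (SE 0.23, adjusted p = 0.00248, edgeR) on 20 to 69 UMIs per library. In Dpp4+ fibroblasts the rise was 1.44 (SE 0.42, adjusted p = 0.0414), but the aged 3D cold library (1.25 CPM) lay within the young range, and the call was lost without the aged 14D cold, aged TN or young 14D cold library (estimates from 0.78 to 2.24 with 1 library left out). In Cd142+ fibroblasts the log2 fold change was 1.37 (adjusted p = 0.0574). Endothelial markers moved with these values. Their summed level was 11.2 to 13.7 CPM in young Dpp4+ fibroblasts and 46.0, 16.8 and 43.0 in the aged TN, 3D cold and 14D cold libraries. Of 9 tested markers, 8 were higher in aged Dpp4+ fibroblasts (8.77% of all genes were). In Icam1+ preadipocytes the sum was 9.60 to 15.3 in young and 28.1, 11.5 and 28.7 in aged libraries, with 3 of 9 markers higher and 0 lower (8.15% and 6.53% of all genes). Adipocyte RNA was also higher in 2 classes, at 11.3 to 20.1 CPM in young and 29.1 to 42.2 CPM in aged Dpp4+ fibroblasts, and at 44.9 to 67.3 against 74.3 to 104 CPM in Cd142+ fibroblasts. In the Dpp4+ class 6 of 9 genes were higher and none lower (8.77% and 8.92% of all genes). In Icam1+ preadipocytes adipocyte RNA overlapped between ages, at 65.1 to 114 CPM in young and 60.2 to 123 CPM in aged libraries, with 3 of 9 genes higher and 0 lower (8.15% and 6.53% of all genes). The part of endothelial or adipocyte RNA in the Timp4 values of fibroblasts was not tested. Timp4 also overlaps Syn2, a synapsin gene on the opposite strand. In Icam1+ preadipocytes Syn2 measured 0.364, 0.625 and 0.528 CPM in young and 0.984, 1.36 and 0.779 CPM in aged libraries (log2 fold change 1.08, adjusted p = 0.0492, edgeR). In Dpp4+ fibroblasts its log2 fold change was 1.02 (adjusted p = 0.229), and in Cd142+ fibroblasts it did not pass the filter on low counts. The part of Syn2 reads in the Timp4 values was not tested.

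**Figure D3:**
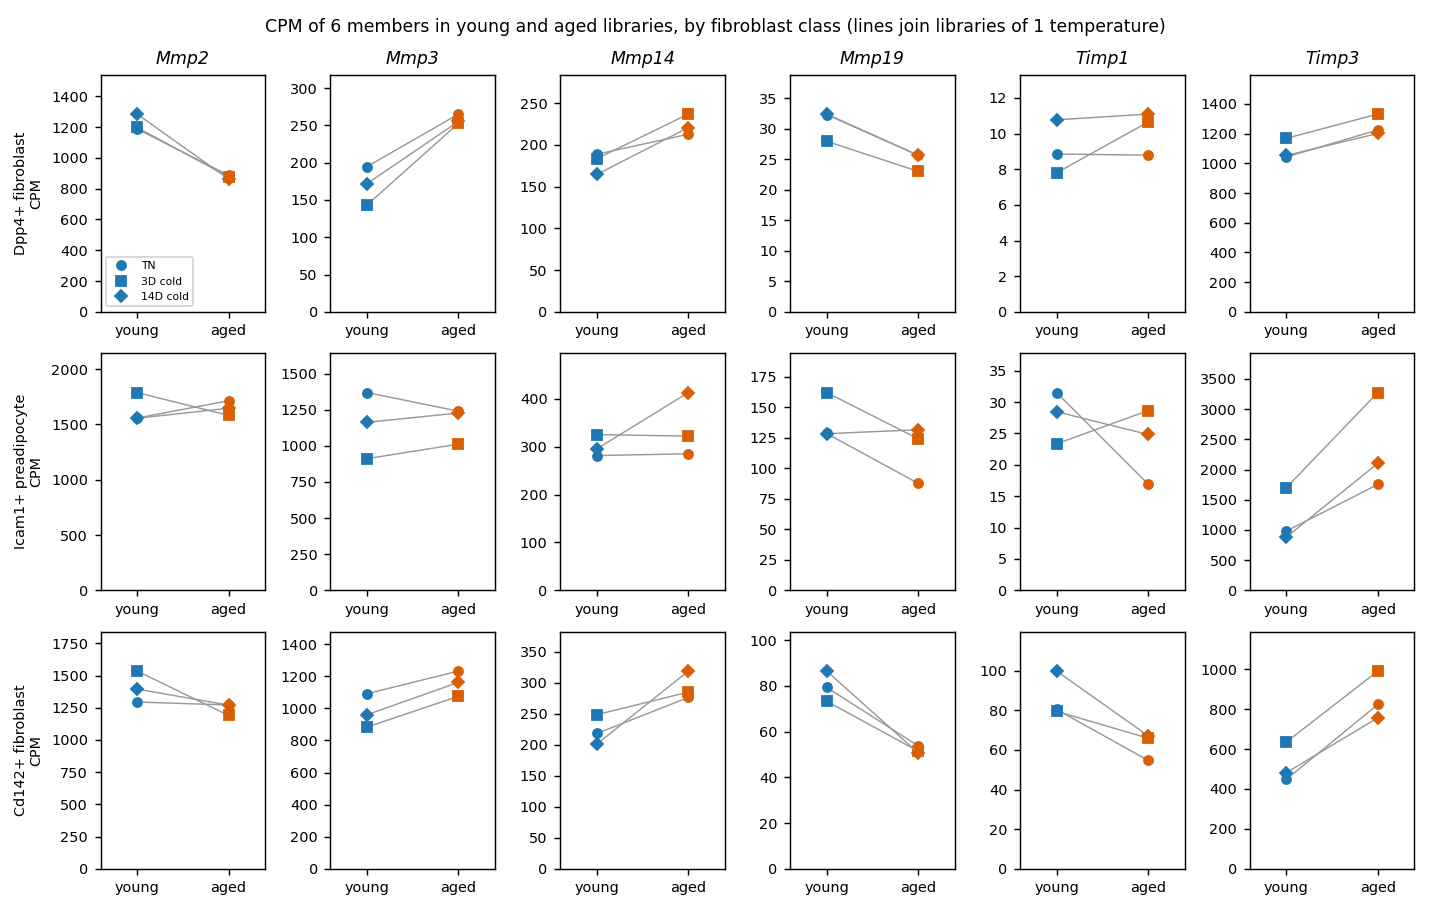
Each panel plots 1 gene (columns) in 1 fibroblastic class (rows), with age on the horizontal axis and CPM from 0 on the vertical axis; each point is 1 library, with marker shape for temperature, and lines join young and aged libraries of the same temperature. Mmp2 falls from 1188 to 1285 CPM in young to 862 to 887 CPM in aged Dpp4+ fibroblasts but overlaps in Icam1+ preadipocytes, and Timp1 falls in Cd142+ fibroblasts, from 79.5 to 99.8 CPM to 54.8 to 67.2 CPM.

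The 3D cold group stood out for Mmp11 and Timp3. Temperature was called for 3 of 10 members among Icam1+ preadipocytes (6.42% of all genes tested), 1 among Dpp4+ fibroblasts (6.25%) and 1 among Cd142+ fibroblasts (3.6%) by edgeR's test of the 3 temperatures together. Mmp11 was higher in 3D cold than at TN by 1.55 on the log2 scale in Cd142+ fibroblasts (adjusted p for temperature 0.00159), by 1.11 in Icam1+ preadipocytes (adjusted p = 0.00858) and by 0.77 in Dpp4+ fibroblasts (adjusted p = 0.0144). In each of these classes the 3D cold library was the highest of its age, and in 14D cold the difference from TN was 0.45, 0.25 and 0.23. Chchd10, on the other strand, was higher in 3D cold by 3.27, 3.52 and 2.04 in the same classes, and its part was not tested. Timp3 was higher in 3D cold by 0.83 (adjusted p = 0.00678) in Icam1+ preadipocytes, or 1.77-fold, and stood at 0.06 from TN in 14D cold. In Cd142+ fibroblasts its 3D cold difference was 0.38 (adjusted p = 0.0567). Mmp23 was lower in 3D cold in Icam1+ preadipocytes (-0.43, adjusted p = 0.0186) and at -0.03 from TN in 14D cold. The calls for Mmp11 in Dpp4+ fibroblasts and Mmp23 in Icam1+ preadipocytes were each lost without either 3D cold library, with estimates from 0.70 to 0.86 and from -0.48 to -0.37 as libraries were left out. All of these temperature calls were lost when age was left out of the model.

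**Figure D4:**
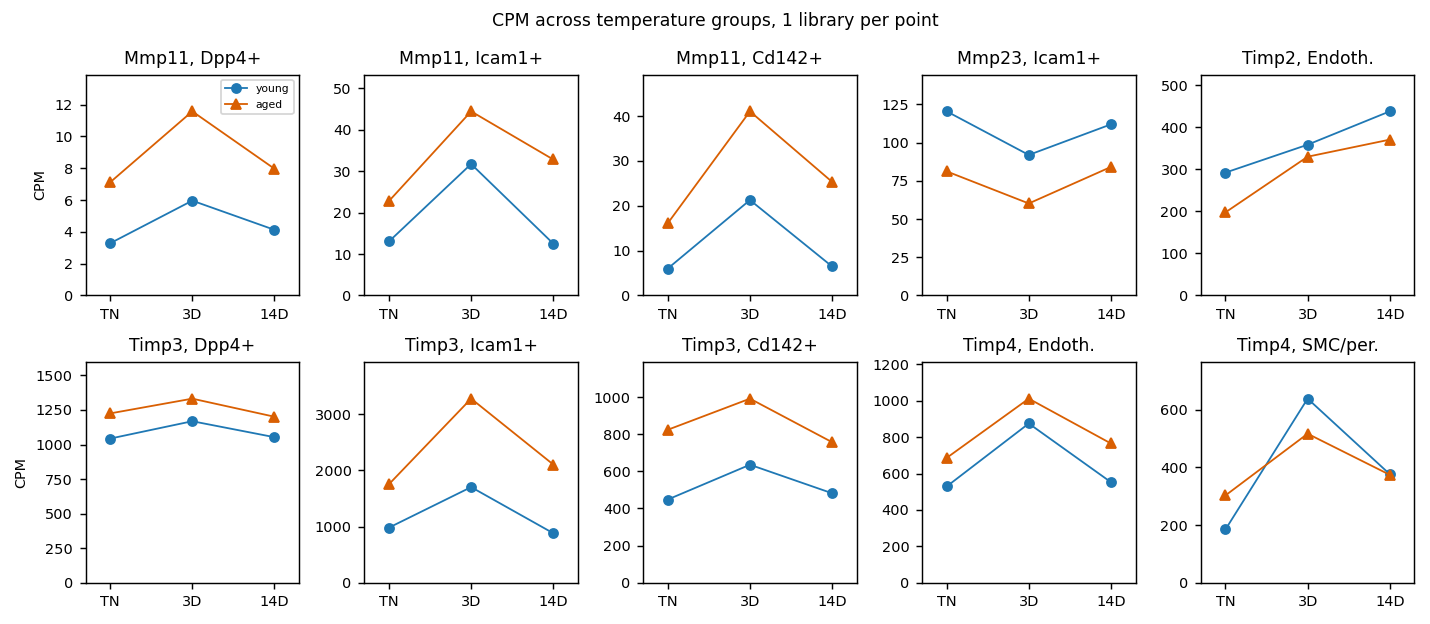
Each panel plots 1 gene in 1 cell class, with temperature group on the horizontal axis and CPM from 0 on the vertical axis; each point is 1 library (circles young, triangles aged) and lines join libraries of the same age. Mmp11 and Timp3 peak in 3D cold at both ages in the fibroblastic classes, reaching 44.4 CPM and 3275 CPM in aged Icam1+ preadipocytes, and Timp4 peaks there in endothelial cells (875 and 1011 CPM).

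In endothelial cells Timp3 was the most abundant member, followed by Timp4, and Timp4 was highest in 3D cold at each age. Timp4 measured 529, 875 and 553 CPM in young and 686, 1011 and 765 CPM in aged libraries, and was higher in 3D cold than at TN by 0.65 (adjusted p for temperature 0.0227, edgeR). Of the 10 members, 2 were called for temperature (0.534% of 10867 genes), the other being Timp2 (0.75 in 14D cold, adjusted p = 0.0458). With age, 1 member was higher (0.948% of genes) and 1 lower (1.99%). Timp4 rose by 0.35 (SE 0.08, adjusted p = 0.0444), with aged above young at each temperature but overlapping ranges, and Mmp2 fell by 0.47 (SE 0.11, adjusted p = 0.0445) from 121, 125 and 153 CPM to 75.8, 108 and 106 CPM. The Timp4 calls for age and temperature were lost without any of the 4 cold libraries, that of Timp2 without either 14D cold library, and that of Mmp2 without either TN or either 14D cold library. With 1 library left out, the age estimates ran from 0.28 to 0.42 for Timp4 and from -0.61 to -0.35 for Mmp2. For temperature they ran from 0.55 to 0.76 for Timp4 and from 0.55 to 0.96 for Timp2.

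Fibroblast RNA moved with the endothelial values of Mmp2 and Timp2. The summed level of 6 fibroblast transcripts (Dcn, Col1a1, Col1a2, Col3a1, Pdgfra and Lum) in endothelial cells was 2956 to 5009.9 CPM in young and 1885 to 2527 in aged libraries, and 4 of the 6 were lower in aged cells (1.99% of all genes were). The sum was highest in 14D cold at each age, as Timp2 was, and 3 of the 6 were called for temperature (0.534% of all genes were). Red cell RNA, highest in 3D cold at each age as Timp4 was, stood at 792, 2845 and 69.9 CPM in young and 2003, 3407 and 518 CPM in aged libraries, with 4 of 5 genes called for temperature. Adipocyte RNA stood at 1059, 1144 and 517 CPM in young and 962, 2121 and 1409 CPM in aged libraries, with 1 of 9 called. The part of these RNAs in the endothelial values was not tested. Without cells of a high doublet score, the age log2 fold change of Mmp2 in endothelial cells turned to 0.45. In the larger endothelial cluster alone, Timp4 changed by 0.12 (adjusted p = 0.65) and Mmp2 by -0.50 (adjusted p = 0.482). Timp3 in endothelial cells measured 1370.2 to 1413 CPM in young and 1457 to 1684 CPM in aged libraries, a log2 fold change of 0.15 (adjusted p = 0.333).

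In SMC/pericytes none of the 10 members passed the threshold for age (0.11% of 10031 genes were higher and 0.14% lower) or for temperature (0.319%) by edgeR's test, in which 1056 genes had an unadjusted p under 0.05 for age and DESeq2 called 0 members for age and 1 for temperature. Timp3 came nearest for age, at 1336, 1513 and 1297 CPM in young and 1740.2, 2448 and 1779.5 CPM in aged libraries, without overlap (log2 fold change 0.52, SE 0.12, adjusted p = 0.15). Timp4 measured 185, 638 and 376 CPM in young and 303, 517 and 374 CPM in aged libraries. Its 3D cold difference from TN of 1.27 had an adjusted p for temperature of 0.0804, and the highest library at each age was 3D cold. The summed level of 10 endothelial markers there was also highest in 3D cold at each age. It stood at 365, 1134 and 879 CPM in young and 638, 1036 and 950 CPM in aged libraries. Of these markers 2 were called for temperature. The Rgs5 and Myh11 clusters held 1.56% and 0.513% of cells in young 3D cold and 1.10% and 1.41% at young TN. In aged libraries these shares were 1.645% and 0.489% against 2.76% and 1.78%. The part of either in the Timp4 values was not tested.

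Set against each other as sums, TIMP UMIs outnumbered MMP UMIs in most classes, and more so in aged libraries. In Dpp4+ fibroblasts there were 2.72 ± 0.189 (SD, n = 3) TIMP UMIs per MMP UMI in young and 3.60 ± 0.0327 in aged libraries, and in Cd142+ fibroblasts 1.05 ± 0.0452 and 1.30 ± 0.104. In Icam1+ preadipocytes the ratio was 0.910 ± 0.137 in young and 1.34 ± 0.299 in aged libraries, so that MMP UMIs outnumbered TIMP UMIs in 2 of 3 young libraries. Young and aged ranges did not overlap in these 3 classes. In endothelial cells, with few MMP UMIs, the ratio was 9.92 ± 2.59 and 13.3 ± 1.51, and the ranges overlapped. These ratios are a description of transcript counts, without a test, and give no measure of enzyme activity.

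**Figure D5:**
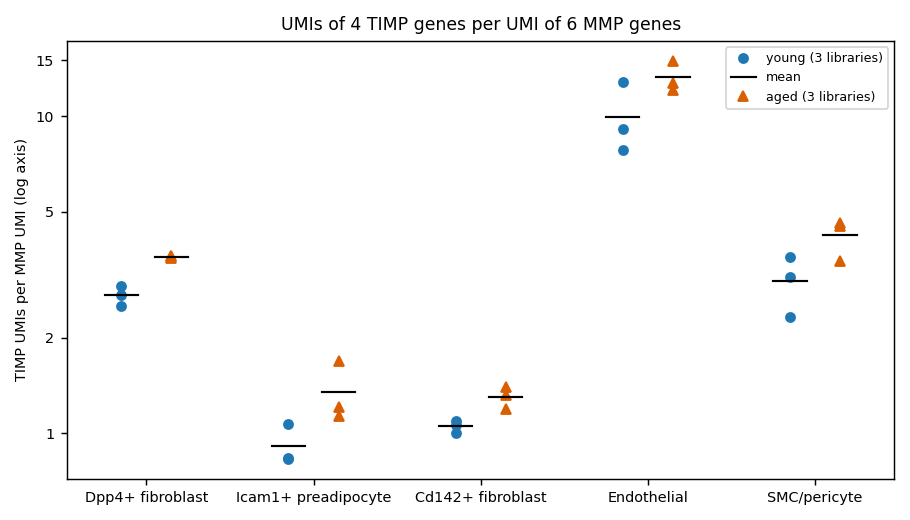
The vertical axis (log scale) gives the summed UMIs of 4 TIMP genes per summed UMI of 6 MMP genes in each of 5 cell classes on the horizontal axis; circles are young and triangles aged libraries, and bars are means of 3. Aged libraries lie above young ones in the 3 fibroblastic classes (Dpp4+ fibroblasts 2.72 and 3.60 on average) and the ratio is highest in endothelial cells.

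Across the 30 sums of 5 classes and 6 libraries, the genes most like each member were found by Pearson correlation of log2 levels, among 6007 genes. They were Pdgfra (r = 0.991), Serpinf1 and Ms4a4d for Mmp2, Sox9 (r = 0.98), Entpd2 and Ctsk for Mmp3, C1s1 (r = 0.976), Mxra8 and Twist2 for Mmp14, and Ssc5d (r = 0.964), Adam19 and Gsn for Mmp19. Mmp23 was nearest to Thbs3 (r = 0.983), Antxr1 and Itgav, and Mmp11, with the loosest likeness of the proteases, to Mlana (r = 0.859), Uhrf2 and Stat3. Timp1 was nearest to F3 (r = 0.951), a marker of Cd142+ cells, and then to C2 and Sned1. Timp2 was nearest to Hspb8 (r = 0.986), Fgfr1 and Lpar1, Timp3 to its overlapping gene Syn3 (r = 0.913), Chd2 and Lncpint, and Timp4 to Tmem182 (r = 0.994), Esam and Tspan15. The 30 sums share 6 libraries and the differences between classes, so these values are a description only.

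Other MMP genes were scarce. Of 16 listed, 6 were tested in Icam1+ preadipocytes, 4 in Dpp4+ and 3 in Cd142+ fibroblasts, and in each class the same 2, Mmp27 and Mmp16, were lower in aged libraries while none was higher. Over all genes tested, 6.53%, 8.92% and 6.02% were lower in these classes. Mmp27 fell by 0.73 (SE 0.07, adjusted p = 0.000118, edgeR) in Dpp4+ fibroblasts, from 30.9 to 31.6 CPM in young to 17.1 to 21.1 CPM in aged libraries, and by 0.41 and 0.32 in the other fibroblastic classes. Mmp16, a membrane-type MMP, fell by 2.89 (SE 0.37, adjusted p = 0.000539) in Dpp4+ fibroblasts, from 1.33 to 1.61 CPM to 0.0712 to 0.289 CPM. These Mmp16 levels are near the floor, so the size of its fall is uncertain.

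Among the genes that activate MMPs or hold them at the cell surface, changes ran both ways. Of 8 tested members of the plasminogen and proprotein activation list, 4 rose and 3 fell with age in Cd142+ fibroblasts, 1 rose and 3 fell in Dpp4+ fibroblasts, and 2 rose and 2 fell in Icam1+ preadipocytes. Among all genes, 6.18%, 8.77% and 8.15% were higher and 6.02%, 8.92% and 6.53% lower in these classes. Plau (urokinase) rose by 0.66 in Icam1+ preadipocytes and 0.86 in Cd142+ fibroblasts, and its receptor Plaur rose by 0.65 in Dpp4+ fibroblasts (adjusted p = 0.000551). Serpine2, a serpin that inhibits thrombin and urokinase, rose by 0.68 in Icam1+ preadipocytes and 0.53 in Cd142+ fibroblasts. The proprotein convertases Pcsk5 and Pcsk6 fell in all 3 classes, Pcsk5 by 1.28 in Dpp4+ fibroblasts (adjusted p = 1.37e-05) and Pcsk6 by 0.27 there (adjusted p = 0.0184). Of 9 tested cell surface inhibitors and cofactors, 4 were lower in aged Dpp4+ fibroblasts, including Reck, a membrane-anchored MMP inhibitor (-0.54, adjusted p = 9.06e-05), and Bsg, which induces MMPs in fibroblasts (-0.25). Cd44, which anchors MMPs at the surface, rose there by 0.42. Of the same 9 genes, 0 were called for age in Icam1+ preadipocytes, and 1 was higher and 0 lower in Cd142+ fibroblasts. Of 5 sheddases and receptors tied to TIMP3, Adam17 fell by 0.35 in Dpp4+ fibroblasts and Adam12 by 0.73 in Icam1+ preadipocytes and 0.61 in Cd142+ fibroblasts. Kdr, a receptor that TIMP3 blocks and an endothelial marker, rose by 1.15 in Dpp4+ and 1.32 in Cd142+ fibroblasts, where endothelial markers as a group were also higher in aged libraries.

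Many matrix substrates fell with age. Of 10 matrix genes, 7 were lower and 1 higher with age in Cd142+ fibroblasts, and 6 and 5 were lower in the Dpp4+ and Icam1+ classes, with none higher. Over all genes tested, 6.02%, 8.92% and 6.53% were lower in these classes. Of the same 10 genes, 7 were lower and 0 higher in endothelial cells (1.99% of all genes were lower), and 4 were lower and 0 higher in SMC/pericytes (0.14%). The part of fibroblast RNA in the vascular values was not tested. Col1a1 fell from 3721 to 6208 CPM in young to 881 to 2015 CPM in aged Dpp4+ fibroblasts (-1.88, SE 0.10, adjusted p = 2.47e-06, edgeR), Col3a1 by 1.94 and Eln by 1.01. In Icam1+ preadipocytes Col1a1 fell by 0.67 and Fn1 by 1.15. Of the collagen turnover genes, Ctsk (cathepsin K, a collagenolytic cysteine protease) rose in all 3 classes, by 0.50, 0.38 and 0.80 in Dpp4+, Icam1+ and Cd142+ cells, while Mrc2, the endocytic receptor for collagen fragments, fell by 0.62, 0.28 and 0.34. Fap, a serine protease of activated fibroblasts, fell by 0.61 in Dpp4+ fibroblasts and 0.30 in Icam1+ preadipocytes. Genes induced by tissue dissociation (Fos, Jun and others) overlapped between ages in summed level in each fibroblastic class, at 16934 to 20247 CPM in young and 16122 to 21764 in aged Dpp4+ fibroblasts. Of these 10 genes, 3 were higher and 1 lower there (8.77% and 8.92% of all genes). In Icam1+ preadipocytes 3 were higher and 0 lower (8.15% and 6.53%), as in Cd142+ fibroblasts (6.18% and 6.02%). Their part in the values of Mmp3, whose upstream sequence holds an AP-1 motif, was not tested.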

How the data were processed

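Single-cell libraries (10x Genomics 3′, 1 per age and temperature) of live CD45-negative iWAT cells were measured by the authors as UMI counts: Cell Ranger aligned reads to mm10 and the authors deposited raw whole-number counts per gene and barcode. Barcodes were kept with more than 200 genes and within 3 median absolute deviations per library, clustered (6000 variable genes, leaving out marker, member and pathway genes, 15 components, Leiden resolution 0.5) and named from marker lists by a rule set after the clusters were seen. Clusters with over 75% high doublet scores stayed unnamed; other doublets stayed in. Counts were summed per library and class and tested with edgeR 4.0.16 (quasi-likelihood, TMM, filterByExpr, age with temperature as a term, 2 residual degrees of freedom). All p-values were adjusted by Benjamini-Hochberg over all genes tested, with a threshold of 0.05. Differences of the age effect between classes came from 1 edgeR model over both. The code was tested on simulated data.

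The members and lists were chosen with earlier results of these data known. Genes of the pathway lists were named where they passed for age or temperature in at least 1 class, at most 6 per list by size of change. A result that met this rule is not reported here. Alternatives were DESeq2 1.42.0, RLE factors, other filters, cell limits, clusterings and class gates, cells with high doublet scores left out, equal cells thinned to 2000 UMIs, and each library left out. R 4.3.3 and Python 3.11.15 were used.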

Additional observations from a re-analysis of the deposited data

Results flagged for a closer look

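The groups hold 3 libraries each, so no test for a single stray library was made. Age effects that differed between fibroblastic classes by edgeR's test of the difference were those of Mmp3 (-0.37, Cd142+ minus Dpp4+, and -0.57, Icam1+ minus Dpp4+), Timp1 (-0.62, Cd142+ minus Dpp4+), Timp3 (0.52, Cd142+ minus Dpp4+) and Mmp2 (0.51, Icam1+ minus Dpp4+), all as differences of log2 fold changes.

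Mmp14 and Timp2 were higher in the aged library at all 3 temperatures in some fibroblastic classes and lower at all 3 in endothelial cells. For Mmp14 the log2 fold changes differed by 0.83 between Dpp4+ fibroblasts and endothelial cells and by 0.92 between Cd142+ fibroblasts and endothelial cells. For Timp2 the gap to endothelial cells was 0.56 in Cd142+ fibroblasts, 0.53 in Dpp4+ fibroblasts and 0.51 in Icam1+ preadipocytes. In each of these 5 cases the difference was not tested, and neither gene passed the threshold for age in endothelial cells. The endothelial direction turned positive in 4 alternatives for Mmp14 and 3 for Timp2, and fibroblast RNA in endothelial cells was lower in aged libraries (2956 to 5009.9 CPM in young, 1885 to 2527 CPM in aged), whose part was not tested.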

How the results depend on the processing

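Across 336 other fits of the 19 member changes called for age, 277 kept direction and call, 58 lost the call and 1 turned direction. Of 123 fits of the 7 temperature calls, 91 kept the call, and of 45 fits of the 5 differences between classes, 30 did. Single clusters, and all alternatives for those differences, were chosen after seeing the data. No paired analysis was possible because each group has 1 library. With 2 residual degrees of freedom and 160 to 416 SMC/pericytes per library, precision is lowest in the vascular classes.

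Without the temperature term, members called for age numbered 3 in Dpp4+, 1 in Icam1+, 2 in Cd142+ and 0 in endothelial cells. Endothelial age calls numbered 0 with DESeq2, in cluster 5 alone, with equal cells, without high doublet scores, with the marker gate and at resolution 1, and were 1 with fixed cell limits and at resolution 0.3 and 5 with no filter; SMC/pericyte calls were 1 with fixed limits and with no filter. With a library left out, these counts ran from 0 to 2 in endothelial cells and from 0 to 1 in SMC/pericytes.

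Temperature calls in Dpp4+ fibroblasts numbered 0 with DESeq2, in cluster 2 alone, with fixed limits, without the age term and with the marker gate. In Icam1+ preadipocytes they were 6 with no filter and 0 without the age term, and in Cd142+ fibroblasts 2 with DESeq2 and at either other resolution, 3 with no filter and 0 without the age term. In endothelial cells they were 1 in cluster 5 alone, with all genes used for clustering and at either other resolution, and 0 without high doublet scores, without the age term and with the gate. In SMC/pericytes they were 1 with DESeq2, equal cells or no high doublet scores and 2 with fixed limits or no filter. With a library left out they ran from 0 to 1 in Dpp4+, 2 to 5 in Icam1+, 1 to 3 in Cd142+, 0 to 3 in endothelial cells and 0 to 5 in SMC/pericytes; the highest counts came without the aged 14D cold, young 14D cold or young TN library in Icam1+, without either TN library in Cd142+ and without the aged TN library in SMC/pericytes.

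Age log2 fold changes that turned direction were nearly all uncalled. Mmp2 in Icam1+ preadipocytes turned to -0.0034 with the gate. In endothelial cells without high doublet scores, Mmp2 (the 1 called change to turn) was 0.45, Mmp14 0.084, Mmp19 0.15, Mmp23 0.29 and Timp2 0.26; with the gate Mmp14 was 0.45, Timp1 0.30 and Timp2 0.32; at resolution 1 Mmp14 was 0.15 and Timp2 0.076; at resolution 0.3 Mmp14 was 0.038; in cluster 5 Mmp19 was 0.071; with fixed limits Mmp3 was -0.061. In SMC/pericytes without high doublet scores, Mmp2 was 1.06, Mmp3 1.47, Timp2 1.08 and Timp4 -0.23; with the gate Mmp3 was 0.13, Timp2 0.28 and Timp4 -0.095; with fixed limits Mmp3 was 0.12 and Timp2 0.063; at resolution 1 Timp2 was 0.011. The cause was not tested. With a library left out, values ran from -0.036 to 0.12 for Mmp2, -0.024 to 0.13 for Mmp3 and -0.55 to 0.077 for Timp1 in Icam1+ preadipocytes, and from -0.39 to 0.79 for Mmp3 in endothelial cells. In SMC/pericytes they ran from -0.39 to 0.20 for Mmp3, -0.092 to 0.34 for Mmp14, -1.48 to 0.084 for Timp1, -0.17 to 0.26 for Timp2 and -0.16 to 0.37 for Timp4.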
